A study of Mus musculus with 14 samples.

Results

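The contactin-associated proteins, also called Caspr proteins, are single-pass membrane proteins of neurons whose large extracellular part resembles that of the neurexins. Cntnap1 to Cntnap4 and the mouse copies Cntnap5a, Cntnap5b and Cntnap5c make up the family. All 7 listed genes were found in the count table, which holds 24100 genes. They were chosen by name, and in part because Cntnap5c leaned higher in the Astn2 knockout libraries from Purkinje cell ribosomes, so their values in that contrast are given as a description without a test.

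The libraries came from cerebella of mice at postnatal day 21, either Astn2 wild type (WT) or Astn2 knockout (KO), from a cross in which the animals carried Tg(Pcp2-Egfp-L10a). This transgene expresses an EGFP-tagged ribosomal protein L10a from the Pcp2 promoter, which is active in Purkinje cells. Translating ribosome affinity purification (TRAP) recovered the tagged ribosomes with antibodies against GFP, and a portion of each supernatant was kept beforehand as whole-cerebellum input. Input comprised 4 WT libraries (1 female, 3 male) and 3 KO libraries (2 female, 1 male). TRAP comprised 3 WT libraries (1 female, 2 male) and 4 KO libraries (2 female, 2 male). The labels do not say whether the libraries of a group came from separate animals, so p-values measure the spread between these libraries. Input and TRAP libraries may share animals. The tests of TRAP against input treat them as unpaired, except where a replicate block is named.

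In myelinated axons, Cntnap1 pairs with contactin 1 (Cntn1) and, across the gap to the glial neurofascin (Nfasc), forms the paranodal junctions beside each node of Ranvier. Cntnap2 pairs with contactin 2 (Cntn2) and gathers Kv1 potassium channels at the juxtaparanode, with band 4.1 proteins such as Epb41l3 linking the complex to the actin and spectrin skeleton. Cntnap3 and Cntnap4 are studied mainly at synapses, Cntnap4 in inhibitory interneurons, while the roles of the Cntnap5 genes are little known. Purkinje cells are the output neurons of the cerebellar cortex and have myelinated axons.

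The genes lie on separate chromosomes, except for Cntnap5a and Cntnap5b. In GENCODE M21 on GRCm38 (mm10), Cntnap1 (Entrez gene 53321) spans chr11:101170523-101190724 on the plus strand. Cntnap2 (66797) spans chr6:45059357-47304213 on the plus strand. Cntnap3 (238680) spans chr13:64736182-64903955 on the minus strand. Cntnap4 (170571) spans chr8:112570043-112882717 on the plus strand. Cntnap5a (636808) is at chr1:115684756-116587323, Cntnap5b (241175) at chr1:99772765-100485942 and Cntnap5c (620292) at chr17:57769570-58410355, all on the plus strand. The longest transcript of every member has 24 exons, while the gene spans range from 20.2 kb for Cntnap1 to 2245 kb for Cntnap2.

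The 3 Cntnap5 copies are alike enough for their reads to be confused, so their sequences are shown here. Aligned coding sequences were 89.8% identical between Cntnap5a and Cntnap5b, 90.3% between Cntnap5a and Cntnap5c, and 90.04% between Cntnap5b and Cntnap5c. Cntnap3 and Cntnap4 were 70.4% identical, and the other pairs of members lay between 59.3% and 63.6%. Of the 31-base stretches in its transcripts, Cntnap5c shared 9.28% with another member, Cntnap5b 7.66% and Cntnap5a 2.81%. Cntnap1, Cntnap2, Cntnap3 and Cntnap4 shared 0% with another member. With genes outside the family, on either strand, Cntnap4 shared 7.71%, Cntnap1 3.80%, Cntnap2 1.24% and Cntnap3 0%. The Cntnap5 copies shared 0.717% (Cntnap5a), 0.325% (Cntnap5b) and 0.769% (Cntnap5c) with such genes.

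The 90-base coding window with the fewest differences among the Cntnap5 copies covers coding positions 1462 to 1551, counted from 1 at the first base of the start codon, and runs from exon 9 into exon 10. It is taken from GENCODE M21 transcripts, 5′ to 3′ on the plus strand, with genomic spans chr1:116184443-116188340 for Cntnap5a, chr1:100160175-100164144 for Cntnap5b and chr17:58102230-58104673 for Cntnap5c, each including an intron. Capitals mark the 3 positions at which the copies are not all the same.
Cntnap5a: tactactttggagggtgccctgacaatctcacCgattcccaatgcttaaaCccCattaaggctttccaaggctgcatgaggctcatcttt
Cntnap5b: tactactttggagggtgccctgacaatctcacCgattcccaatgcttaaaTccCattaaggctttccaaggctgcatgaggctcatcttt
Cntnap5c: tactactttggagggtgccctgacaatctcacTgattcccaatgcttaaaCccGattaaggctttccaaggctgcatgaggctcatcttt

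The window of that length with the most differences, coding positions 688 to 777 in exons 5 and 6, is shown for contrast. Its genomic spans are chr1:116089366-116101594 for Cntnap5a, chr1:100072206-100076073 for Cntnap5b and chr17:58035003-58042470 for Cntnap5c, again with an intron inside, and capitals mark the 27 positions that differ.
Cntnap5a: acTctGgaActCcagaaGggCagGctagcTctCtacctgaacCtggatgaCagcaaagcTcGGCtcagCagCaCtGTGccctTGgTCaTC
Cntnap5b: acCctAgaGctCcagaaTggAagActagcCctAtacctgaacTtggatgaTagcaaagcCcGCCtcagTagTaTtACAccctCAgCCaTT
Cntnap5c: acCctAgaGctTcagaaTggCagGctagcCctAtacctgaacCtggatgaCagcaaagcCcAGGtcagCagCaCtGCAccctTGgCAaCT

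The libraries held 18.8 to 54.2 M (mega) counts each. Levels are given as CPM, counts per M counts, after TMM scaling over all 14 libraries. A level of 3 counts was taken as the floor of detection and equals 0.0553 to 0.160 CPM, depending on depth. The targeted gene Astn2 stood at 94.5 ± 6.76 CPM (SD, n = 4) in input WT, 0.877 ± 0.129 (n = 3) in input KO, 130 ± 14.9 (n = 3) in TRAP WT and 1.52 ± 0.447 (n = 4) in TRAP KO, in accord with the labels. In TRAP against input in WT, all 10 Purkinje markers were higher, all 10 granule cell markers lower and all 8 oligodendrocyte markers lower at an adjusted p under 0.05 in edgeR's quasi-likelihood test. The summed level of the Purkinje markers was 6676 to 7234 CPM in input WT and 84084 to 91927 CPM in TRAP WT. The granule sum was 5355 to 5606 CPM against 998 to 1448 CPM. TRAP WT replicate 3 and TRAP KO replicate 4 stood apart from the other 5 TRAP libraries, with granule sums of 998 and 844 CPM against 1170 to 1529 CPM. Cntnap5a stood at 3.57 and 3.10 CPM in that pair against 0.819 to 1.85 CPM in the other 5, and Cntnap5b at 35.4 and 38.6 CPM against 24.6 to 28.1 CPM.

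Cntnap1, the paranodal member, was the most abundant of the family in every group. Per kilobase of its longest transcript, its mean level was 39.4 CPM per kb in input WT and 36.4 in input KO, against 11.5 in TRAP WT and 12.3 in TRAP KO. In input WT, Cntnap4 came next at 5.95 CPM per kb, then Cntnap5b at 2.54 and Cntnap2 at 2.28, whose ranges overlapped. Cntnap5c followed at 0.441 and Cntnap5a at 0.145 CPM per kb, each range clear of its neighbours at this length. On Purkinje ribosomes, at this length, Cntnap5b came second. Its level was 7.10 CPM per kb in TRAP WT and 7.41 in TRAP KO. Cntnap4 at 2.77, Cntnap2 at 1.62 and Cntnap5c at 1.10 CPM per kb came after it in TRAP WT, and neighbours among these overlapped. In TRAP KO, Cntnap5c (2.22 CPM per kb) lay between Cntnap4 (2.40) and Cntnap2 (1.63), again with overlapping ranges. The length used matters for Cntnap2, whose longest transcript has 9827 bases for 3996 coding bases. Per kilobase of its median transcript Cntnap2 ranked 2nd in all 4 groups, at 20.2 CPM per kb in input WT and 14.4 in TRAP WT, ahead of Cntnap4 (8.87) in input WT and of Cntnap5b (7.13) in TRAP WT. Per kilobase of coding sequence it ranked 3rd in all 4 groups, at 5.602 CPM per kb in input WT and 3.99 in TRAP WT. Length matters for Cntnap5a too, whose longest transcript has 10945 bases for 3912 coding bases. Per kilobase of coding sequence in input WT, Cntnap5c stood at 0.442 ± 0.107 CPM (SD) and Cntnap5a at 0.406 ± 0.0848 CPM. The gap between Cntnap5c and Cntnap5a therefore depends on the length used. Cntnap1 ranked 1st and Cntnap3 7th at each of the 3 lengths.

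**Figure D1:**
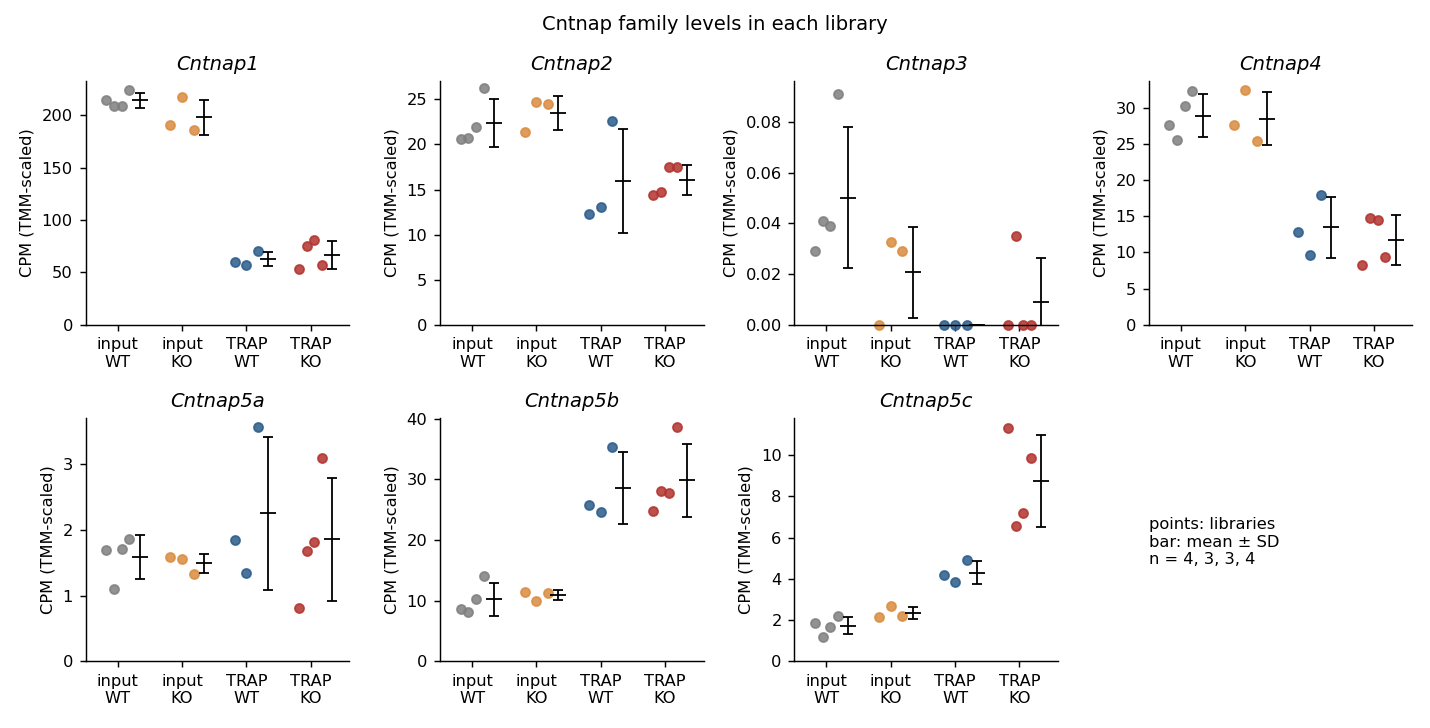
Level of each Cntnap gene in every library (CPM with TMM scaling, linear axis from 0, a scale of its own per gene), by group. Points are libraries and bars are the group mean ± SD: Cntnap5b lies higher in TRAP than in input, and the Cntnap5c points of TRAP KO (6.56 to 11.3 CPM) lie above those of TRAP WT (3.83 to 4.94 CPM).

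Cntnap3 was barely detected. Input WT libraries held 1 to 3 counts and input KO libraries 0 to 2, TRAP WT libraries held 0 and TRAP KO libraries 0 to 1. All of these are at or under the smallest measurable level, so no fold is given, and the gene did not pass the filter on low counts. The other 6 members were tested in the input comparison.

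The first question was which members were richer on Purkinje ribosomes than in whole cerebellum. Of the 5 members open to this test, Cntnap5b was higher in TRAP, Cntnap1, Cntnap2 and Cntnap4 were lower, and Cntnap5a did not pass the threshold, in WT and KO alike. Cntnap5c was left out of the test because the choice of members rested on its TRAP libraries. At the same threshold, 75.5% of all genes tested in WT were called (37.0% higher, 38.5% lower) and 75.9% in KO (36.3% higher, 39.6% lower), so 4 of 5 members is close to the share for all genes. Ranges of TRAP and input that did not overlap were also common over all genes with a mean of at least 1 CPM: 39.4% lay higher and 36.2% lower in WT, and 42.9% higher and 38.3% lower in KO. In the tissue as a whole, fewer cells of a type and less RNA per cell cannot be told apart.

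Cntnap1 measured 214, 209, 209 and 224 CPM in the input WT libraries and 60.2, 57.2 and 70.2 CPM in TRAP WT. In KO it measured 191, 217 and 186 CPM in input, and 53.7, 75.2, 80.7 and 57.2 CPM in TRAP. No TRAP library reached an input library. The log2 difference between TRAP and input was -1.78 ± 0.15 (SE) in WT (edgeR's quasi-likelihood test, adjusted p = 1.37e-07), that is 3.42-fold lower, and -1.57 ± 0.14 in KO (adjusted p = 3.07e-07). It was -1.88 and -1.51 without both TRAP libraries that stood apart. The longest overlap of a Cntnap1 exon with an exon of Plekhh3, on the opposite strand, is 233 bases. Whether counting used strand is not given in the sources used here, so reads of that stretch cannot be assigned with certainty. Plekhh3, named after its values were seen, stood at 55.0 ± 2.87 CPM in input WT and 46.7 ± 4.98 in TRAP WT.

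Cntnap2, the juxtaparanodal member, measured 20.6, 20.7, 21.97 and 26.2 CPM in input WT and 12.2, 13.1 and 22.6 CPM in TRAP WT. The highest TRAP value, from replicate 3, falls within the input range. In KO the input libraries stood at 21.4, 24.7 and 24.4 CPM and the TRAP libraries at 14.4, 14.8, 17.5 and 17.5 CPM, with no overlap. The log2 difference was -0.47 ± 0.17 in WT (edgeR's quasi-likelihood test, adjusted p = 0.0192) and -0.60 ± 0.16 in KO (adjusted p = 0.00441). The WT call was lost without TRAP WT replicate 1 (-0.36, adjusted p = 0.1001) and without input WT replicate 4 (-0.41, adjusted p = 0.0535). Leaving out both TRAP libraries that stood apart moved the WT difference to -0.81 (adjusted p = 3.30e-05), while the KO difference was -0.61.

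Cntnap4 measured 27.6, 25.5, 30.1 and 32.3 CPM in input WT and 12.8, 9.62 and 17.9 CPM in TRAP WT. In KO it measured 27.5, 32.4 and 25.3 CPM in input and 8.23, 14.7, 14.5 and 9.29 CPM in TRAP. The TRAP and input ranges did not overlap in either genotype. The log2 difference was -1.10 ± 0.24 in WT (edgeR's quasi-likelihood test, adjusted p = 7.68e-04) and -1.29 ± 0.23 in KO (adjusted p = 1.68e-04). Without the pair of TRAP libraries that stood apart it was -1.41 and -1.20. The longest overlap of a Cntnap4 exon with an exon of the antisense gene Gm45904, on the opposite strand, is 503 bases. Of the 7 molecular layer interneuron markers, 6 were lower and 1 higher in TRAP in WT. This was not particular to interneurons, since all 8 Bergmann glia and astrocyte markers and all 7 microglia markers were lower too. The choroid plexus list had 1 higher and 1 lower. The summed level of the interneuron markers was 932 to 1099 CPM in input WT and 1007 to 1199 CPM in TRAP WT. Their median log2 difference in WT was -1.80 and that of the 1 higher marker 1.58, so the sum does not follow all 7 alike. None of these interneuron markers was at 0 in all libraries of a group. Their part in the Cntnap4 difference was not tested.

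Cntnap5b was higher on Purkinje ribosomes than in input. It measured 8.59, 8.07, 10.2 and 14.1 CPM in input WT and 25.8, 24.6 and 35.4 CPM in TRAP WT. In KO it measured 11.5, 9.94 and 11.2 CPM in input and 24.8, 28.1, 27.8 and 38.6 CPM in TRAP. All TRAP libraries exceeded all input libraries. The log2 difference was 1.51 ± 0.19 in WT (edgeR's quasi-likelihood test, adjusted p = 5.58e-06), which is 2.84-fold, and 1.41 ± 0.19 in KO (adjusted p = 1.62e-05), which is 2.65-fold. Without the pair that stood apart it was 1.31 in WT and 1.30 in KO. The WT value sat below those of the 10 Purkinje markers in WT, which ranged from 1.57 to 4.99, and in KO the markers ranged from 1.13 to 4.73.

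Cntnap5a was low throughout. It measured 1.70, 1.10, 1.70 and 1.85 CPM in input WT and 1.85, 1.35 and 3.57 CPM in TRAP WT, and 1.58, 1.56 and 1.33 CPM in input KO against 0.819, 1.68, 1.82 and 3.10 CPM in TRAP KO. The ranges overlapped in both genotypes. The highest value of each TRAP group came from the library that stood apart. The log2 difference was 0.54 ± 0.38 in WT (edgeR's quasi-likelihood test, adjusted p = 0.214) and 0.22 ± 0.39 in KO (adjusted p = 0.612), and without both of those libraries it was -0.03 and -0.07.

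Cntnap5c measured 1.84, 1.21, 1.66 and 2.22 CPM in input WT and 4.17, 3.83 and 4.94 CPM in TRAP WT. Input KO libraries stood at 2.16, 2.67 and 2.20 CPM and TRAP KO libraries at 11.3, 6.56, 7.21 and 9.87 CPM. Every TRAP library was above every input library. The log2 differences, given as values only, were 1.33 ± 0.24 in WT and 1.91 ± 0.24 in KO, and 1.15 and 1.82 without the pair of TRAP libraries that stood apart.

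These differences are relative to TMM scaling. Scaling by library totals alone shifted the median log2 difference of all genes, by -0.82 for WT and by -0.73 for KO. Under that scaling Cntnap5b stayed higher in TRAP (0.69 in WT and 0.67 in KO), as did Cntnap5c (0.50 and 1.16), while Cntnap5a turned lower (-0.28 and -0.51). Cntnap1, Cntnap2 and Cntnap4 stayed lower, with Cntnap2 at -1.30 in WT and -1.34 in KO.

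**Figure D2:**
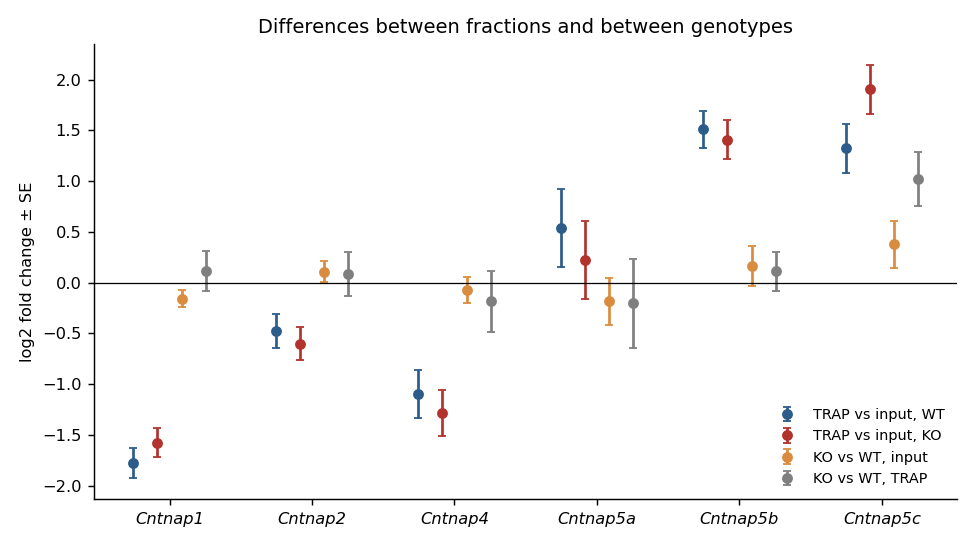
Log2 differences of the Cntnap genes with their standard errors, for TRAP against input in each genotype and for KO against WT in each fraction. Cntnap1, Cntnap2 and Cntnap4 lie below 0 and Cntnap5b above 0 for TRAP against input, and for genotype every value other than that of Cntnap5c in TRAP (1.02) lies between -0.21 and 0.38.

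The next question was whether the family differed with Astn2 genotype in whole cerebellum. None of the 6 members tested differed between KO and WT input at an adjusted p under 0.05 in edgeR's quasi-likelihood test, 0 had an unadjusted p under 0.05, and the DESeq2 Wald test called 0. Over all genes, 0.0188% were called (3 of 15997, with 0.00625% higher and 0.0125% lower), Astn2 among them. The log2 difference was -0.16 ± 0.08 for Cntnap1 (adjusted p = 0.428), 0.11 ± 0.11 for Cntnap2 (adjusted p = 0.687), and -0.07 ± 0.12 for Cntnap4 (adjusted p = 0.831). Their 95% intervals were -0.34 to 0.02, -0.13 to 0.35 and -0.36 to 0.21. As folds, these bounds are 0.792 to 1.02 for Cntnap1, 0.913 to 1.27 for Cntnap2 and 0.782 to 1.16 for Cntnap4. The KO and WT ranges of all 7 members overlapped in input, where 6.83% of genes with a mean of at least 1 CPM lay wholly higher in KO and 4.3% wholly lower.

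The Cntnap5 copies were measured less precisely in input. The log2 difference of Cntnap5b was 0.16 ± 0.20 (interval -0.29 to 0.61), that of Cntnap5a -0.18 ± 0.23 (-0.70 to 0.33), and that of Cntnap5c 0.38 ± 0.23 (-0.16 to 0.91). Cntnap5c had a mean of 2.35 ± 0.283 CPM (n = 3) in input KO and 1.73 ± 0.421 CPM (n = 4) in input WT, and the ranges overlapped (edgeR's quasi-likelihood test, adjusted p = 0.509). Its counts per input library lay between 59 and 163. The endothelial markers, a list of 6 genes, had a summed level of 12.9 to 19.5 CPM in input KO and 20.2 to 28.3 CPM in input WT. None of them was called, none was at 0 throughout a group, and their part in the member values was not tested. The 6 choroid plexus markers varied between input libraries. Their sum was 1178 CPM in input KO replicate 2, and 24.4 and 23.0 CPM in replicates 1 and 3. In input WT it was 28.8, 411, 286 and 17.7 CPM in replicates 1 to 4. Between genotypes in input 0 of these markers were called, and their part in the member values was not tested.

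On Purkinje ribosomes, the pattern that had led to the choice of the family was the level of Cntnap5c. Its mean was 8.74 ± 2.23 CPM (n = 4) in TRAP KO and 4.31 ± 0.567 CPM (n = 3) in TRAP WT, a ratio of 2.03. The libraries behind these means held 123 to 290 counts in KO and 61 to 119 counts in WT. Every KO library exceeded every WT library. Female KO libraries stood at 11.3 and 6.56 CPM beside 4.17 CPM in the female WT library, and male KO libraries at 7.21 and 9.87 CPM beside 3.83 and 4.94 CPM. The fitted log2 difference was 1.02 ± 0.27 (SE). It ranged from 0.87 to 1.14 over the 15 alternatives, and it was 1.02 without both TRAP libraries that stood apart. These alternatives reuse the TRAP libraries that led to the choice, so they are not independent support for the difference. Over all genes, 0.00707% were called in this contrast (1 of 14145), and 1.71% of genes with a mean of at least 1 CPM (230 of 13426) had every KO library above every WT library.

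The other members overlapped between genotypes on Purkinje ribosomes. The log2 differences were 0.12 ± 0.19 for Cntnap1, 0.09 ± 0.22 for Cntnap2, -0.19 ± 0.30 for Cntnap4, -0.21 ± 0.44 for Cntnap5a and 0.11 ± 0.19 for Cntnap5b. Without the pair of libraries that stood apart, they were 0.27 ± 0.19, 0.33 ± 0.13, 0.16 ± 0.31, -0.13 ± 0.45 and 0.10 ± 0.12, in the same order. For Cntnap2, TRAP WT replicate 3 stood at 22.6 CPM and the other WT libraries at 12.2 and 13.1 CPM, beside 14.4 to 17.5 CPM in KO. Its difference depended on the WT library left out, from -0.07 without TRAP WT replicate 2 to 0.35 without TRAP WT replicate 3. For Cntnap5a the difference ran from -0.60 with the replicate block to 0.15 without TRAP WT replicate 3. Cntnap5b, the most abundant copy, had means of 29.8 ± 6.01 CPM in TRAP KO and 28.6 ± 5.91 CPM in TRAP WT. The difference between the responses of Cntnap5c in TRAP and in input rests on the same TRAP libraries and was not tested. Both TRAP contrasts of Cntnap5c, against input and between genotypes, share the TRAP KO libraries.

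Because the copies share sequence, the counts of the 3 genes were also viewed together. Cntnap5c made up 21.8 ± 5.87% of their summed counts in TRAP KO (18.03% to 30.6%) and 12.4 ± 1.01% in TRAP WT (11.2% to 13.1%). In input it made up 16.0 ± 2.49% in KO (14.2% to 18.9%) and 12.8 ± 1.60% in WT (11.6% to 15.2%). The sum of Cntnap5a and Cntnap5b was 31.7 ± 6.93 CPM in TRAP KO (25.7 to 41.7) and 30.8 ± 7.07 CPM in TRAP WT (25.9 to 38.9). The share of Cntnap5c was therefore higher in each TRAP KO library than in any TRAP WT library, while the summed level of the other copies overlapped. This share is built from the TRAP counts by which Cntnap5c was chosen, so it is a description and was not tested. The highest share, 30.6%, came from TRAP KO replicate 1, and the other 3 KO libraries lay between 18.03% and 19.6%. How the counting divided reads from windows such as the first one shown above is not given in the sources used here.

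**Figure D3:**
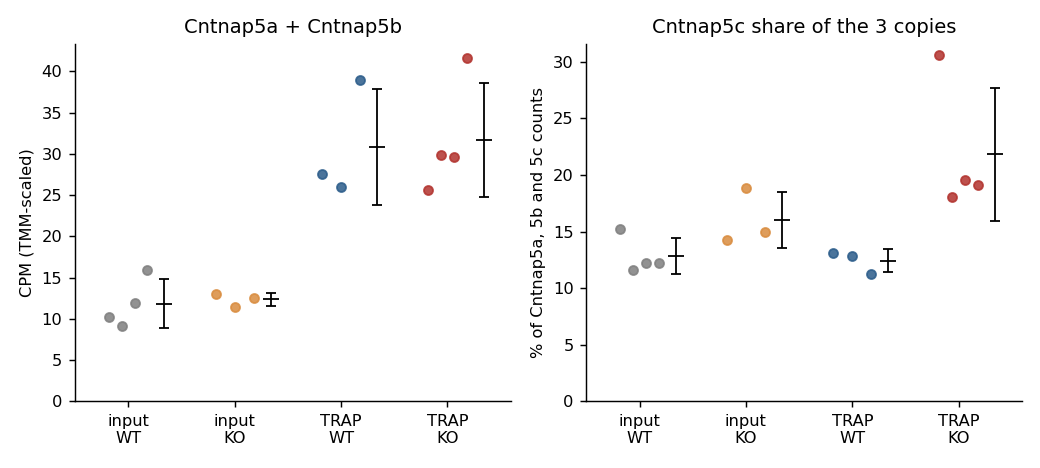
Summed level of Cntnap5a and Cntnap5b (left, CPM with TMM scaling) and share of Cntnap5c in the counts of the 3 copies (right, percent), by group, with points for libraries and bars for the mean ± SD. The sum overlaps between TRAP KO and TRAP WT, while the Cntnap5c share is 18.03% to 30.6% in TRAP KO and 11.2% to 13.1% in TRAP WT.

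The summed level of the 6 choroid plexus markers was 88.0 to 108 CPM in TRAP KO and 118 to 204 CPM in TRAP WT. Of the 4 that passed the filter on low counts in this comparison, 0 were called, and none of the 6 was at 0 in all libraries of a group. For TRAP against input, 1 of the 6 was called higher (2.54) and 5 lower in KO. In WT 1 was called higher (3.09) and 1 lower. The sum therefore does not follow all 6 markers alike. The part of these markers in the Cntnap5c values was not tested.

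The partners of the family were followed through 5 lists covering 43 genes: contactins, paranode, juxtaparanode, node and initial segment, and band 4.1 and PDZ proteins. In TRAP against input, 13 of the 43 were higher and 22 lower in WT, and 10 higher and 21 lower in KO (adjusted p under 0.05 in edgeR's quasi-likelihood test). Over all genes tested 37.0% were higher and 38.5% lower in WT, and 36.3% and 39.6% in KO, the background for the counts of each list below. Their median log2 difference was -0.44 in WT and -0.47 in KO, beside -0.09 and -0.11 for all genes tested. With library totals the counts became 8 higher and 30 lower in both genotypes.

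Among the contactins, the immunoglobulin-domain binding partners of the family, 1 of 6 was higher and 3 lower in WT. Cntn1, the partner of Cntnap1, fell from 172 ± 20.5 CPM in input WT to 91.7 ± 5.95 in TRAP WT, a log2 difference of -0.89. Cntn2, the partner of Cntnap2, went from 262 ± 9.26 to 52.9 ± 21.5 CPM (-2.35 in WT, -1.73 in KO). Cntn3 was the higher one, with 5.42 ± 1.44 CPM in input WT and 13.3 ± 5.10 in TRAP WT (1.34, and 1.37 in KO). Both established partners were lower on Purkinje ribosomes in WT, as were Cntnap1, Cntnap2 and 38.5% of all genes tested.

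In the paranode list, 1 of 6 genes was higher and 4 lower in WT. The lowest were the spectrins Sptbn1 (-2.22) and Sptan1 (-1.11), which form the submembrane skeleton. Nfasc, whose isoforms serve the paranode and the node, did not pass (279 ± 33.0 CPM in input WT, 247 ± 76.2 in TRAP WT; log2 difference -0.16, adjusted p = 0.367). Epb41l3, the band 4.1 protein that binds Cntnap1 and Cntnap2, was higher in TRAP by 0.70 in WT and 0.56 in KO, but with library totals its difference turned to -0.12 and -0.17.

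The juxtaparanode list, the surroundings of Cntnap2, was divided, with 7 of 15 higher and 7 lower in WT, and 6 higher and 7 lower in KO. The Kv1 auxiliary subunits Kcnab1 and Kcnab2 were the highest. Kcnab1 stood at 131 ± 13.96 CPM in input WT and 954 ± 218 in TRAP WT (log2 difference 2.88), and Kcnab2 at 143 ± 10.1 and 715 ± 15.4 CPM (2.33). The lowest were Lgi1 (-2.49), a secreted ligand of Adam22, and the scaffold Dlg1 (-2.36). The Kv1 channel subunits, named here after their values were seen, went both ways: Kcna6 (2.03) and Kcna4 (2.01) were higher, and Kcna1 (-0.51) and Kcna2 (-1.13) lower. Kcna1 and Kcna2 are the subunits that Cntnap2 is best known to gather.

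In the node and initial segment list, 3 of 12 genes were higher and 5 lower in WT. The sodium channel subunit Scn4b (2.34) was highest, and the potassium channel Kcnq3 (-3.27) and the sodium channel Scn2a (-2.85) lowest. Among the 9 band 4.1 and PDZ proteins, 3 were higher and 5 lower. Epb41l3 and Mpdz (0.35) were highest, and with library totals Mpdz turned to -0.47. Epb41l1 (-2.46) and Gpr37 (-2.09), a receptor bound by PDZ proteins, were lowest.

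Between genotypes on Purkinje ribosomes, 0 of 43 partner genes passed in edgeR's quasi-likelihood test, 0 had an unadjusted p under 0.05 (1.5% of all genes did), and the DESeq2 Wald test called 0 (0.0212% of all genes). In input, 0 of 43 passed in edgeR, 8 had an unadjusted p under 0.05 (13.7% of all genes did), and the DESeq2 Wald test called 4 (1.84% of all genes). Among those 4, and named after their values were seen, Sptan1 (0.36 in that test) was higher in KO, and Sptbn4 (-0.28) and Lgi3 (-0.30) were lower. Cntn1 (0.02), Cntn2 (-0.21), Nfasc (0.04) and Epb41l3 (0.01) did not pass in edgeR (adjusted p = 0.942, 0.266, 0.874 and 0.976).

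Finally, genes whose levels moved most like each member over the 14 libraries were found by the root mean square difference of log2(CPM + 1), centred on the gene mean, among 12818 candidates. This measure follows mainly the contrast between TRAP and input, which the libraries share. The nearest genes to Cntnap1 were Atp11a (0.10), Enpp1 (0.11) and Ctso (0.11). Those nearest to Cntnap2 were Fastkd5 (0.10), Nbas (0.11) and Marchf7 (0.11), and those nearest to Cntnap4 were Sgce (0.12), Ankle2 (0.13) and Clcn2 (0.14).

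For Cntnap5a the nearest were Zfp51 (0.15), Tubgcp3 (0.16) and Vac14 (0.17), and for Cntnap5b Pdk3 (0.12), Ddx59 (0.12) and the potassium channel Kcnma1 (0.14). Cntnap5c had no gene as near, the first being Kank4 (0.27), with Rab26 (0.28) also among the 3 nearest. Its distances include the TRAP values by which it was chosen. Its own copy Cntnap5b came at rank 169 with a difference of 0.37.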

How the data were processed

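RNA-seq was analysed in 14 mouse cerebellum libraries. The authors deposited whole-number counts by Entrez gene number, with no sign of normalization in the values. Salmon 0.8.2 and the build mm10 are listed in the submitters' processing notes, without a stated role; the annotation and the strand setting are not given in the sources used here. RefSeq's GRCm38.p6 gene table matched 24045 of 24100 genes to symbols. Groups, sex and replicate numbers came from the labels. Pairs of libraries in a group differed by 8.63 to 267 in chi-square per degree of freedom, so none agreed within sampling noise and each was counted as 1 sample. The 3-count floor covers counting error only.

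Tests were edgeR's quasi-likelihood test (edgeR 4.0.16, R 4.3.3), two-sided, with TMM factors, filterByExpr, sex as covariate and Benjamini-Hochberg adjustment over all genes at 0.05, checked on simulated data. Genotype was fitted in the 7 libraries of each fraction, TRAP against input in all 14. Standard errors are the absolute log2 difference over the square root of F, and 95% intervals use the degrees of freedom of the fit. Levels per kilobase use the longest GENCODE M21 transcript. Alternatives were DESeq2 1.42.0, other scalings, no filter, no sex term, replicate blocks, all libraries in 1 fit, other gene lengths and each library left out. Leaving out both TRAP libraries that stood apart, and coding length, were added after seeing the data. The members and gene lists were chosen with earlier results of these data known.

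Genes named are the 7 members, Astn2, the direct partners Cntn1, Cntn2, Nfasc and Epb41l3, and in each partner list the genes past the threshold between genotypes and the 2 highest and 2 lowest past it for TRAP against input in WT. The 3 nearest patterns per member with a mean of at least 1 CPM are also named, leaving out Gm and Rik symbols. Some genes that this rule names are not reported here. Replicate numbers in WT paired input with TRAP: the deviations of same-numbered libraries correlated at 0.32, 0.26 and 0.11. In KO they did not in every pair (0.25, 0.25 and -0.14).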

Additional observations from a re-analysis of the deposited data

How the results depend on the processing

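Counts of the members called kept their side of the threshold under the alternatives run: 0 in input for genotype, and 4 for TRAP against input in each genotype except where 1 library was left out in WT (3 to 4). Genes called between genotypes in input moved from 3 to 294 with the DESeq2 Wald test. They moved to 5 with DESeq2 size factors, 23 with no filter and 1 with the replicate block. With 1 library left out they ranged from 1 to 158, the highest without input KO replicate 2. That library had the highest choroid plexus sum in input (1178 CPM), and the part of this in the counts was not tested. Partner genes called between genotypes in input were 4 with the DESeq2 Wald test. They were 0 to 1 with 1 library left out (1 without input KO replicate 2). Genes called between genotypes in TRAP moved from 1 to 3 with the DESeq2 Wald test and 2 with all 14 libraries, and were 1 to 2 with 1 library left out. The genotype difference in input turned for Cntnap4 to 0.022 with the replicate block and 0.14 without input KO replicate 3 (-0.24 to 0.14 over the libraries left out), and for Cntnap5a to 0.041 with all 14 libraries. For TRAP against input, Cntnap5a turned in WT to -0.28 with library totals and -0.034 without both TRAP libraries that stood apart. In KO it turned to -0.51 with library totals, -0.10 with the replicate block, -0.064 without TRAP KO replicate 4, -0.066 without both, and -0.033 without input KO replicate 3 (-0.064 to 0.49 over the libraries left out). The cause was not tested. The replicate block changed no call of a member, with Cntnap2 in WT at -0.45 (edgeR, adjusted p = 0.0383). Cntnap3 lay at or under the 3-count floor in every library, so its differences were not measurable.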
